A study of Homo sapiens with 6 samples.

Results

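The genes described here are those of the deposited table that act in cell adhesion and in the extracellular matrix, 71 of 2128 listed genes. They are the protein-coding entries annotated by the authors with cell adhesion (37 genes), homophilic adhesion by plasma membrane molecules (12), cell-matrix adhesion (5) or extracellular matrix organization (31), 13 of them with more than 1 of these terms. A set of 8 named junction, stemness and actin regulator genes was left out, 3 of which carried a term, and no remaining gene had to be left out for a cell division term. By symbol the 71 genes are 4 laminins, 8 collagens, 7 cadherins and 52 others. RNA-seq was carried out on SNU668, an established line of human stomach cancer cells of the signet-ring type. The 3 libraries titled shControl carry the genotype label WT, so a control hairpin is named in the title alone, and the 3 libraries titled shGPER are labelled as a knockdown of GPER1, the G protein-coupled estrogen receptor. Whether 1 or several hairpins or clones were used, and whether the libraries of a group were separate cultures, is not stated in the labels, so p-values measure the spread between these libraries, which may be technical.

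Epithelial cells rest on a basement membrane, a sheet in which laminin trimers and collagen networks are joined by linker proteins and bound by integrins of the cell surface. Cadherins, nectins and other immunoglobulin-type molecules hold neighbouring cells together. Membrane-bound and secreted metalloproteinases cut matrix proteins, TIMPs and RECK restrain them, and signet-ring cells are known for loose contacts between cells and for spread as single cells.

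GPER1 itself ranged from 10.41 to 11.04 TPM with shControl and from 1.83 to 2.47 TPM with shGPER, leaving 20.7% of the control mean. TPM (transcript abundances on a common scale) are scaled to transcript length and to the total of the library, and they keep no count of reads, so depth is unknown. The listed genes summed to 61181 to 64236 TPM in shControl and 46584 to 49148 TPM in shGPER libraries. The table is a selected one: the groups did not overlap for 95.3% of its genes, and 98.4% of the 1651 genes with at least 1 TPM in at least 3 libraries were called (limma on log2(TPM + 1), adjusted p under 0.05), 47.8% higher and 50.6% lower in shGPER. A call is therefore the rule in this table, and the account below turns on direction, level and size. Direction also went with base composition over the whole table, so each change is set beside its value once a GC trend, fitted over transcripts in every library, had been taken out, wherever that ended the call, turned it or changed its size by over 1.5 times. E-cadherin (CDH1), the defining epithelial cadherin, was at 0.44 to 0.71 TPM in shControl and 0.11 to 0.42 TPM in shGPER libraries; of 21 epithelial and gastric markers the table listed CDH1 and the trefoil factor TFF1 alone, with a summed level of 5.08 to 6.67 and 0.68 to 3.02 TPM.

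Adhesion and matrix genes moved in both directions. Of the 71 genes 50 reached the level for testing; 27 were higher in shGPER cells, 22 were lower and 1 was not called, with a median log2 fold change of 0.59 against -0.49 over all tested genes. Changes of at least 2-fold numbered 20 higher (32.0% of all tested genes) and 13 lower (24.2%). Of all 71 genes, 44 had every shGPER library above every shControl library and 24 below, against 52.8 and 42.6% of the table, and 3 overlapped (COL7A1, ADGRB1 and LRRN2). Of the 50 tested genes 10 had every library of a group under 1 TPM, 5 in each direction, and so passed the filter through the other group alone, which fixed their direction. Those averaging 5 TPM or more over all libraries, 28 genes, divided into 13 higher and 15 lower, 46.4% higher against 38.2% of all 1044 such genes. Their median was -0.74, against -0.83 for all such genes. A filter of 5 TPM in at least 3 libraries left 16 higher and 15 lower with a median of 0.93, so the sign of the median turned on a few genes and nothing is read from it. Summed over the 71 genes, expression was 921 to 962 TPM in shControl and 936 to 1066 TPM in shGPER libraries, so the groups overlapped in the total while its makeup changed. With the GC trend removed, 13 of the 50 were higher, 18 lower and 19 not called (31.2 and 30.3% of all tested genes were higher and lower), and the median was 0.03. Of the 49 calls 28 kept their direction, a share of calls that was 59.5% over the whole table.

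**Figure D1:**
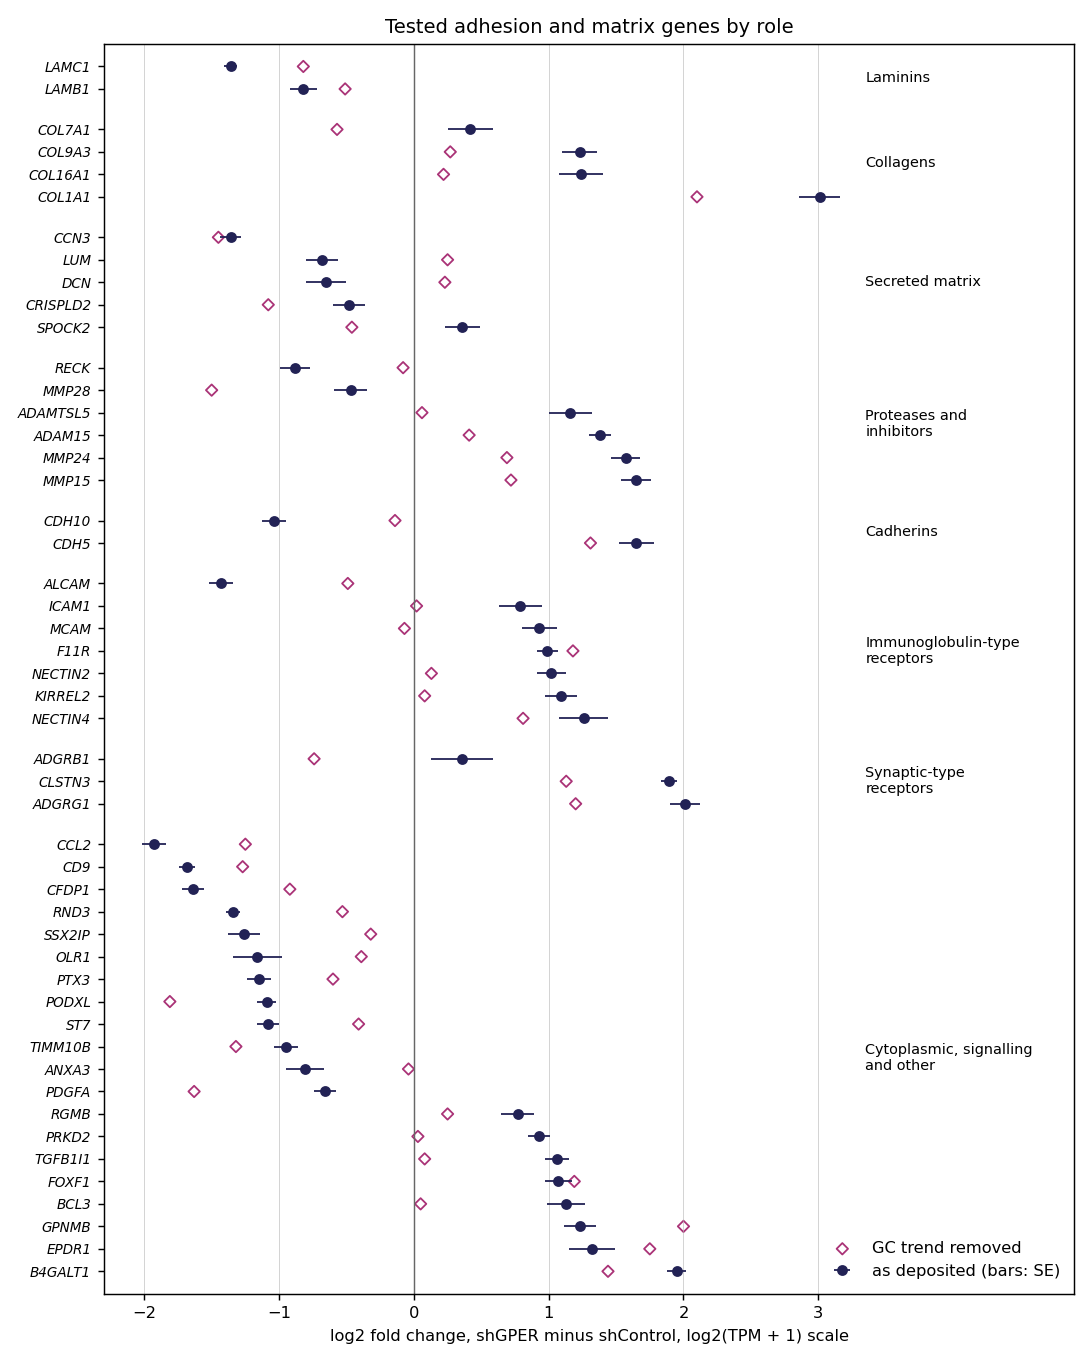
Log2 fold change, shGPER minus shControl on the log2(TPM + 1) scale, of 49 tested adhesion and matrix genes grouped by role; filled circles are the values as deposited with standard errors (n = 3 libraries per group), and open diamonds the values after the GC trend was removed. Collagens lie to the right and laminins to the left, and COL1A1 lies farthest right on this scale, at 3.01.

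Both tested laminin genes fell (50.6% of all tested genes did), and of those under the level for testing LAMC3 had its shGPER libraries above. Laminins are trimers of an alpha, a beta and a gamma chain, and LAMC1 and LAMB1 encode the gamma 1 and beta 1 chains of the trimers found in most basement membranes. LAMC1 (chromosome 1, 183023460 to 183145592, GRCh38) was the most abundant laminin gene, at 118.75, 119.83 and 117.34 TPM with shControl and 44.26, 46.38 and 46.31 TPM in shGPER libraries. The groups lay far apart and the shGPER mean was 38.5% of the control mean, a change of -1.36 on the log2 scale (SE 0.05, limma adjusted p = 2.08e-07). LAMB1 (chromosome 7, 107923799 to 108003255) was at 12.18, 12.44 and 13.58 TPM and fell to 7.07, 5.96 and 7.33 TPM, a change of -0.82 on the log2 scale (SE 0.10, limma adjusted p = 5.54e-05). Both stayed lower without the GC trend, at -0.82 and -0.51. LAMC1 had 8.64 to 9.75 times the TPM of LAMB1 in shControl and 6.26 to 7.78 times in shGPER libraries, and these ranges did not overlap. LAMC3, the gamma 3 chain, was under the level for testing, at 0.13 to 0.21 and 0.33 to 0.41 TPM. Summed laminin expression was 132 to 133 TPM in shControl and 51.9 to 54.3 TPM in shGPER libraries, with LAMC1 giving 89.7 and 86.0% of it. The remaining 8 of the 12 laminin chain genes, all alpha chains among them, were not listed in the selected table, so whole trimers cannot be followed.

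The promoters of the 2 laminin genes that fell together are shown because their starts are rich in GC while their transcripts are not. They are the RefSeq windows of 250 bases before to 50 bases after the start (GRCh38.p14, 300 bases, printed 5′ to 3′ on the strand of the gene). Capitals mark matches on either strand to any of 5 motifs: the TEAD core CATTCC (reverse GGAATG), through which YAP and TAZ act on DNA, the AP-1 site TGANTCA, the cyclic AMP response element TGACGTCA, the GC box GGGCGG (reverse CCGCCC) and the TATA box TATAAA (reverse TTTATA).
LAMC1, chr1:183023170-183023469, plus strand: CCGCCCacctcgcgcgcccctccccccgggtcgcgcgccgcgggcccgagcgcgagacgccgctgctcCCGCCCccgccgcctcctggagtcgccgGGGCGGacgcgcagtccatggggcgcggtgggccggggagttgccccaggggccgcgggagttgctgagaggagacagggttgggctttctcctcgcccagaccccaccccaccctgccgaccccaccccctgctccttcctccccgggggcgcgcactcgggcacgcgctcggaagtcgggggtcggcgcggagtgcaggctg
LAMB1, chr7:108003112-108003411, minus strand: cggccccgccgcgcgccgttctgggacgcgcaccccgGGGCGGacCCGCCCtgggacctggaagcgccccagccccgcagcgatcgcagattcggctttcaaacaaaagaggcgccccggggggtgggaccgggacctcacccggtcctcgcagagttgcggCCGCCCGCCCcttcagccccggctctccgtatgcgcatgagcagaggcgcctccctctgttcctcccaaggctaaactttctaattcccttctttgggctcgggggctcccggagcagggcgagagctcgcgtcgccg
The LAMC1 window holds 79.0% GC and the LAMB1 window 71.0%, against transcript values of 47.6 and 49.7%. LAMC1 has 3 matches to the GC box and LAMB1 has 4, some of them overlapping, and neither window matches any of the other motifs. A window was found for 48 of the 71 genes, 71 windows in all. The TEAD core was in 5.63% of these windows (COL10A1, JCAD, PCDHA7 and RGMB) and in 14% of all 35116 windows, the AP-1 site in 9.86 and 7.71%, the cyclic AMP response element in 5.63 and 1.85%, the GC box in 63.4 and 45.0%, and the TATA box in 12.7 and 11.5%. Of 20 genes with a window that rose 1 held the TEAD core, and of 15 that fell none did. These are matches of letters in short windows and show neither binding nor its absence.

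**Figure D2:**
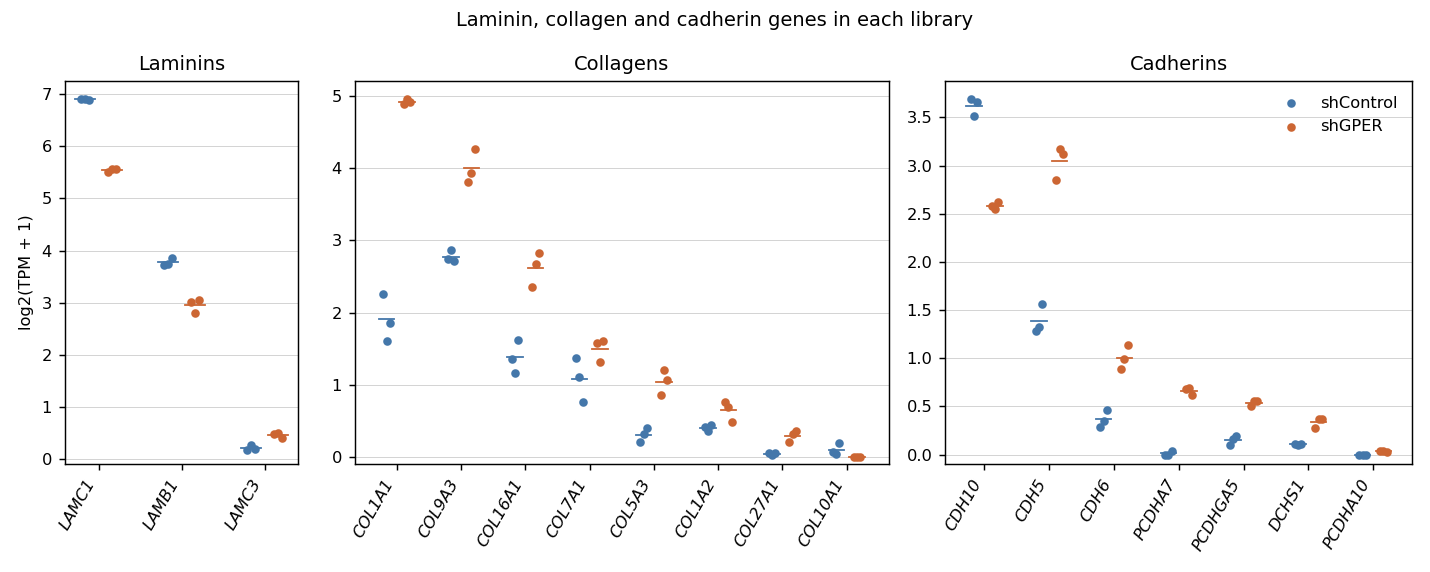
Expression of 3 laminin, 8 collagen and 7 cadherin genes as log2(TPM + 1), with 1 point per library (3 shControl, 3 shGPER), bars at group means, and genes ordered by mean TPM. The shGPER points lie below the shControl points for LAMC1, LAMB1, COL10A1 and CDH10, overlap them for COL7A1, and lie above them for the others.

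Collagens are trimers too, of which types I, V and XXVII form fibrils, and types IX and XVI belong to a class that attaches to them. All 4 tested collagen genes were called higher, against 47.8% of all tested genes; without the GC trend 1 was higher, 1 lower and 2 not called. COL1A1 (chromosome 17, 50183289 to 50201632), the alpha 1 chain of type I collagen, went from 3.79, 2.06 and 2.63 TPM in shControl to 28.77, 30.12 and 29.19 TPM in shGPER libraries. The shGPER libraries were nearly equal and the ratio of means was 10.4, a change of 3.01 on the log2 scale (SE 0.15, limma adjusted p = 5.77e-07). It was still 2.10 without the GC trend. COL1A2 encodes the alpha 2 chain that joins 2 alpha 1 chains in the usual type I trimer. It was under the level for testing, at 0.28 to 0.36 TPM in shControl and 0.40 to 0.70 TPM in shGPER libraries, which lay above. COL1A1 thus had 7.31 to 11.5 times the TPM of COL1A2 in shControl and 41.1 to 73.0 times in shGPER libraries. This ratio rests on COL1A2 values under 1 TPM and was not computed without the GC trend. Transcript GC content is 61.2% for COL1A1 and 47.7% for COL1A2.

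COL9A3, a chain of type IX collagen of cartilage, rose from 5.55 to 6.28 TPM to 13.03 to 18.19 TPM (log2 fold change 1.23). COL16A1, a minor fibril-associated collagen, rose from 1.25 to 2.07 TPM to 4.12 to 6.10 TPM (log2 fold change 1.24). Without the GC trend these 2 were at 0.27 and 0.22 and were not called (limma, adjusted p = 0.0531 and 0.239). COL7A1, the anchoring fibril collagen that ties the basement membrane to the stroma, is the least certain of the 4. Its libraries overlapped, at 1.60, 1.16 and 0.69 TPM against 2.00, 1.48 and 2.05 TPM, and its log2 fold change of 0.42 (limma, adjusted p = 0.0426) turned to -0.57 without the GC trend. The call was also lost without shControl replicate 2 or 3 or shGPER replicate 1 or 3 (limma, adjusted p = 0.0767, 0.141, 0.111 and 0.113) and with a pseudocount of 0.1 (0.0518). Of the other collagens under the level for testing, COL5A3 was at 0.16 to 0.32 and 0.81 to 1.30 TPM and COL27A1 at 0.02 to 0.04 and 0.16 to 0.28 TPM. COL10A1, a collagen of hypertrophic cartilage, was at 0.03 to 0.14 TPM and listed at 0 in all shGPER libraries. Summed collagen expression went from 11.3 to 13.2 TPM to 49.6 to 57.3 TPM, and COL1A1 gave 23.3% of it in shControl and 54.9% in shGPER libraries.

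Of 35 genes for the folding, export and cross-linking of collagen the table listed 3. SERPINH1, the collagen chaperone HSP47, rose from 97.20, 101.09 and 93.72 TPM to 250.84, 278.95 and 285.75 TPM. The groups were widely separated, with a change of 1.47 on the log2 scale (SE 0.06, limma adjusted p = 3.12e-07), and of 0.48 without the GC trend. PCOLCE, which helps the enzyme that trims procollagen ends, rose from 1.17, 1.43 and 2.97 TPM to 4.05, 4.87 and 8 TPM (log2 fold change 1.22) but was not called without the GC trend (0.20; limma, adjusted p = 0.536). SEC23A, a coat protein of the vesicles that carry procollagen out of the endoplasmic reticulum, fell from 12.81 to 15.01 TPM to 3.01 to 4.19 TPM, a log2 fold change of -1.72 and of -0.85 without the GC trend. Of these 3 genes 2 rose and 1 fell, against 47.8 and 50.6% of all tested genes. Transcript GC content is 62.8% for SERPINH1 and 42.8% for SEC23A.

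COL1A1 is also a fibroblast marker. Of 14 fibroblast markers 6 were listed, with a summed level of 7.21 to 10.3 TPM in shControl and 32.5 to 34.3 TPM in shGPER libraries, most of the latter COL1A1 itself. PDGFRA was at 0.01 to 0.02 and 0.06 to 0.30 TPM, and ACTA2 at 0.17 to 0.37 and 0.57 to 1.22 TPM. In 4 of the 6 the shGPER libraries lay above, and LUM and DCN fell, as given next. Such separation held for 52.8% of all listed genes and for 71.7% of those not tested, which include COL1A2, PDGFRA and ACTA2. The part of fibroblast genes in the rise of COL1A1 was not tested. In bulk libraries, a change in the share of cells that express a gene and a change in its RNA per cell cannot be told apart.

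**Figure D3:**
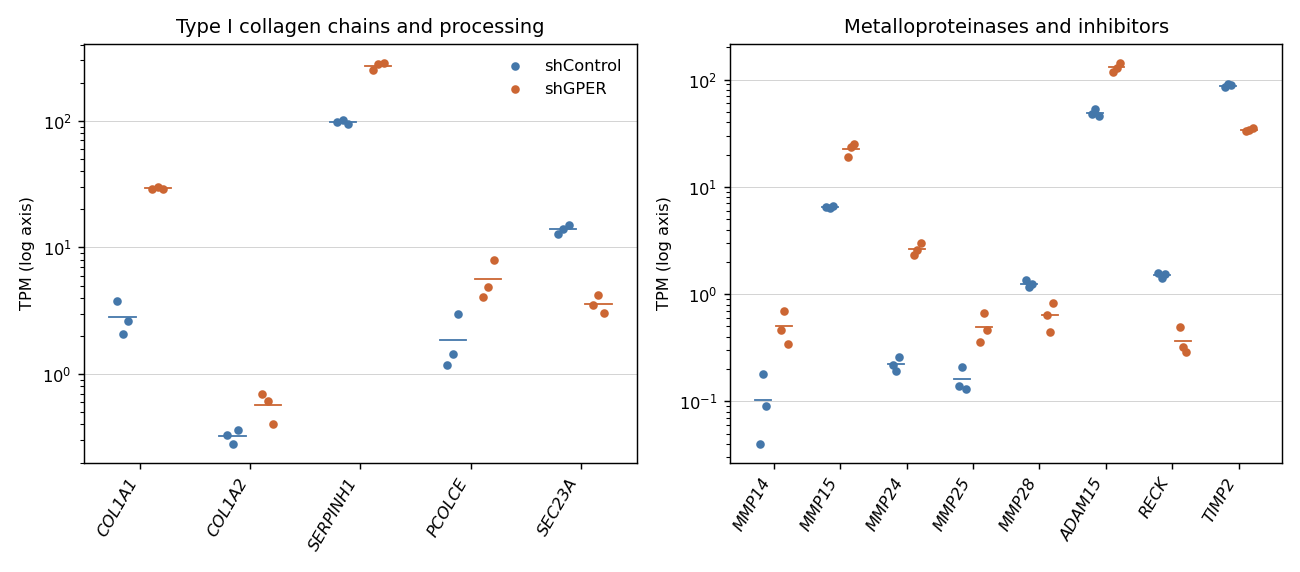
TPM on a log axis of type I collagen chains with 3 processing genes (left) and of metalloproteinases with the inhibitors RECK and TIMP2 (right), with 1 point per library and bars at group means (n = 3 per group). COL1A1 separates from COL1A2 in shGPER libraries. The 4 listed membrane-type metalloproteinases (MMP14, MMP15, MMP24, MMP25) and ADAM15 are higher, and MMP28, RECK and TIMP2 are lower. The filter fixed the direction of MMP24, MMP28 and RECK, and MMP14 and MMP25 were not tested. Without the GC trend RECK was not called.

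Of 5 tested genes for other secreted matrix proteins 4 were called lower and 1 higher, against 50.6 and 47.8% of all tested genes. CCN3, a matricellular protein that binds integrins, was the most abundant of the 6, at 67.87, 79.62 and 70.15 TPM with shControl and 27.08, 29.50 and 26.17 TPM in shGPER libraries. The groups were well apart, with a change of -1.36 on the log2 scale (SE 0.08, limma adjusted p = 1.06e-06). Lumican (LUM) and decorin (DCN), small proteoglycans that bind collagen fibrils, lie 28.7 kb apart on chromosome 12. They fell from 2.30 to 2.92 and 2.33 to 3.49 TPM to 1.06 to 1.31 and 1.09 to 1.57 TPM, at log2 fold changes of -0.68 and -0.65. Both turned to a small rise that was not called without the GC trend, at 0.25 and 0.23 (limma, adjusted p = 0.081 and 0.246). LUM has the lowest transcript GC content of all 50 tested genes, 36.3%. CRISPLD2, a secreted LCCL-domain protein, fell from 1.29 to 1.66 TPM to 0.68 to 0.95 TPM, and its log2 fold change of -0.48, with its direction fixed by the filter, became -1.08 without the GC trend. SPOCK2, a proteoglycan of the SPARC family, was called higher at 0.36 (0.87 to 1.34 against 1.68 to 1.97 TPM) and lower without the GC trend at -0.46. Its call was lost without shControl replicate 3 or shGPER replicate 2 (limma, adjusted p = 0.0688 and 0.0671). EMILIN1, an elastic fibre glycoprotein, was under the level for testing at 0.49 to 0.68 and 0.79 to 1.38 TPM.

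Of 6 tested genes for matrix proteases and their inhibitors 4 were called higher and 2 lower, against 47.8 and 50.6% of all tested genes, and 4 of the 6 had their direction fixed by the filter. MMP15 and ADAM15 are the 2 that did not, and both rose. MMP15 (chromosome 16, 58025566 to 58046901), the membrane-type metalloproteinase MT2-MMP, was at 6.43, 6.40 and 6.64 TPM with shControl and 19.04, 23.47 and 25.29 TPM in shGPER libraries. This was a ratio of means of 3.48 with no overlap, a change of 1.65 on the log2 scale (SE 0.11, limma adjusted p = 1.87e-06) and of 0.72 without the GC trend. MMP24, the membrane-type enzyme MT5-MMP known from neurons, was at 0.19 to 0.26 and 2.32 to 3.02 TPM, at a log2 fold change of 1.57 and of 0.69 without the GC trend. All its shControl libraries were under 1 TPM, so the filter fixed its direction, and 18.1% of its exonic bases overlap an antisense gene. MMP14, the main activator of proMMP2 on cells, was at 0.04 to 0.18 and 0.34 to 0.70 TPM, and MMP25, a glycolipid-anchored enzyme of leukocytes, at 0.13 to 0.21 and 0.36 to 0.66 TPM. These 4 are the membrane-type enzymes that the table listed, without MMP16 and MMP17, and all 4 had every shGPER library above every shControl library. This pattern held for 52.8% of all listed genes and for 71.7% of those not tested, which include MMP14 and MMP25. MMP25 shares 35.2% of its exonic bases with an antisense gene. ADAM15, a disintegrin metalloproteinase of the cell surface, was the most abundant of the enzymes and rose from 47.77, 52.96 and 46.13 TPM to 117.73, 128.63 and 142.51 TPM, a log2 fold change of 1.38 that fell to 0.41 without the GC trend. ADAMTSL5, a secreted protein related to ADAMTS enzymes but without their protease, was at 0.60 to 0.79 and 2.16 to 3.77 TPM. Its log2 fold change of 1.16 had its direction fixed by the filter and was 0.06 without the GC trend, no longer called (limma, adjusted p = 0.77).

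RECK, a membrane-anchored inhibitor of metalloproteinases, was at 1.57, 1.42 and 1.53 TPM with shControl and 0.49, 0.32 and 0.29 TPM in shGPER libraries, 24.3% of the control mean. Its log2 fold change of -0.88 had its direction fixed by the filter, and it was -0.08 and not called without the GC trend (limma, adjusted p = 0.538). The soluble inhibitor TIMP2, which is no gene of the 71 but comes from the list of metalloproteinases and inhibitors, fell from 84.89, 90.02 and 88.88 TPM to 33.19, 34.08 and 35.29 TPM. Its log2 fold change was -1.34 (SE 0.05, by limma, adjusted p = 2.73e-07), and -1.19 without the GC trend. MMP15 had 0.0711 to 0.0757 times the TPM of TIMP2 in shControl and 0.574 to 0.717 times in shGPER libraries. This ratio was not computed without the GC trend, where MMP15 was at 0.72 and TIMP2 at -1.19. Transcript GC content is 61.3% for MMP15 and 51.0% for TIMP2. The secreted enzyme MMP28, or epilysin, was at 1.17 to 1.34 and 0.44 to 0.82 TPM. Its log2 fold change of -0.47, with its direction fixed by the filter, became -1.50 without the GC trend. Of the 39 genes of that list 9 were listed and 6 tested, 3 higher and 3 lower (47.8 and 50.6% of all tested genes), and 3 of the 6 had their direction fixed by the filter.

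The MMP15 promoter is shown as that of the listed membrane-type enzyme of highest level.
MMP15, chr16:58025504-58025803, plus strand: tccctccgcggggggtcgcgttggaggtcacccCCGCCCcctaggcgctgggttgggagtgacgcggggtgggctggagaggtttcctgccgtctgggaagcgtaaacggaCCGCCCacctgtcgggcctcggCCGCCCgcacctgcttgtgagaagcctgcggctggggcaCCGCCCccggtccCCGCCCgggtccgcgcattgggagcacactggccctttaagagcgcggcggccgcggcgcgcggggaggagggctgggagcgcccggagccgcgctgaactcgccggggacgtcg
It holds 75.3% GC and 5 matches to the GC box, and none to the other 4 motifs. The transcripts of MMP15 are GC-rich as well (61.3%), and of the 305 called genes of like GC content, within 2.5 percentage points, 88.5% rose.

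Of the 7 cadherins listed, which are calcium-dependent adhesion molecules, 2 were tested, and they moved in opposite directions. CDH10, a type II cadherin best known from brain, was at 11.93, 10.44 and 11.60 TPM with shControl and 4.99, 4.86 and 5.14 TPM in shGPER libraries. CDH5, the cadherin of endothelial junctions, was at 1.43, 1.51 and 1.96 TPM and rose to 6.19, 7.99 and 7.69 TPM. The log2 fold changes were -1.04 (SE 0.09; limma, adjusted p = 7.47e-06) and 1.65 (SE 0.13; limma, adjusted p = 5.13e-06). CDH10 was above CDH5 in every shControl library and below it in every shGPER library. Without the GC trend CDH5 stayed higher at 1.31 and CDH10 was no longer called (-0.14; limma, adjusted p = 0.238); its transcripts hold 41.8% GC, and 9.97% of 321 called genes of like GC content rose. The total over the 7 cadherins was 12.4 to 14.2 TPM in shControl and 13.3 to 15.4 TPM in shGPER libraries, and CDH10 gave 84.2 and 34.2% of it. Of 12 endothelial markers CDH5 and the transcription factor ERG were listed, with a summed level of 2.09 to 2.52 and 7.52 to 8.71 TPM. ERG was not called, at 0.54 to 1.01 and 0.69 to 1.33 TPM, and was called higher without the GC trend (limma, adjusted p = 0.001). The part of endothelial genes in the rise of CDH5 was not tested.

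The other 5 cadherins were under the level for testing, and in each of them all shGPER libraries lay above all shControl libraries. CDH6, a type II cadherin of kidney, was at 0.22 to 0.38 and 0.85 to 1.20 TPM. DCHS1, the dachsous protocadherin that binds FAT4, was at 0.07 to 0.08 and 0.21 to 0.29 TPM. The clustered protocadherin PCDHA7 was at 0 to 0.03 and 0.54 to 0.61 TPM, PCDHGA5 at 0.07 to 0.14 and 0.42 to 0.47 TPM, and PCDHA10 was listed at 0 in all shControl libraries and at 0.02 to 0.03 TPM in shGPER libraries. Clustered protocadherins share 3' exons, and their values are uncertain: 64.1% of the 31-nt words of PCDHA7 occur in PCDHA9 and 39.4% of those of PCDHGA5 in PCDHGA3. Among genes not tested, 71.7% of the table had their shGPER libraries above. Of 15 catenins and cadherin partners 2 were listed, and both fell (50.6% of all tested genes did): VEZT, the junction protein vezatin, from 61.37 to 68.85 TPM to 27.95 to 30.42 TPM (at -1.15 on the log2 scale, and -0.29 with the GC trend taken out), and PKP4, an armadillo protein of junctions, from 28.96 to 29.10 TPM to 12.84 to 16.26 TPM (48.6% of the control mean).

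Immunoglobulin-type receptors were mostly higher. Of 7 tested genes 6 rose and 1 fell, against 47.8 and 50.6% of all tested genes, and 2 of the 6 stayed higher without the GC trend. ALCAM (CD166), which binds CD6 and itself, was the gene that fell, from 14.94, 16.89 and 16.73 TPM to 4.98, 5.84 and 5.30 TPM, a change of -1.43 on the log2 scale (SE 0.09, limma adjusted p = 1.71e-06) and of -0.49 without the GC trend. The nectins NECTIN2 and NECTIN4, which start cell contacts beside cadherins, rose from 9.57, 12.85 and 9.59 TPM to 22.67, 21.71 and 23.23 TPM and from 2.65, 3.17 and 1.71 TPM to 6.24, 7.06 and 8.78 TPM. Their log2 fold changes were 1.02 and 1.26. Without the GC trend NECTIN4 was at 0.81 and NECTIN2, at 0.13, was no longer called (limma, adjusted p = 0.353). F11R, the tight junction molecule JAM-A, rose from 6.06 to 6.33 TPM to 12.90 to 13.70 TPM, a change of 0.99 on the log2 scale (SE 0.08, limma adjusted p = 4.39e-06); 35.4% of its 31-nt words occur in an overlapping gene on the same strand. F11R and NECTIN4 lie 49.6 kb apart on chromosome 1. ICAM1, the leukocyte ligand, MCAM (CD146) and KIRREL2, a nephrin relative, had log2 fold changes of 0.79, 0.93 and 1.09. Their highest shGPER values were 4.02, 5.34 and 2.91 TPM, and none of the 3 was called without the GC trend (0.02, -0.07 and 0.08). KIRREL2 was under 1 TPM in all shControl libraries, and 22% of the exonic bases of ICAM1 overlap a gene on the opposite strand. ICAM5, 3.37 kb from ICAM1, at 0.10 to 0.19 and 0.67 to 1.45 TPM, and IGSF9, at 0 to 0.04 and 0.15 to 0.22 TPM, were under the level for testing.

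Of 3 tested leucine-rich, synaptic or adhesion G protein-coupled receptors 2 rose, against 47.8% of all tested genes. CLSTN3, calsyntenin 3, a synapse organizer with cadherin repeats, rose from 37.31, 40.39 and 38.18 TPM to 138.02, 146.52 and 152.75 TPM, a change of 1.89 on the log2 scale (SE 0.06, limma adjusted p = 1.1e-07). ADGRG1 (GPR56), an adhesion G protein-coupled receptor that binds collagen III, rose from 5.64, 6.76 and 5.00 TPM to 24.51, 27.34 and 27.18 TPM, a change of 2.01 on the log2 scale (SE 0.11, limma adjusted p = 7.33e-07). Both stayed higher without the GC trend, at 1.13 and 1.20. ADGRB1, the brain angiogenesis inhibitor BAI1, was the 1 tested gene not called, at 0.52, 1.18 and 0.18 TPM against 0.67, 1.05 and 1.43 TPM (log2 fold change 0.36; limma, adjusted p = 0.16). It was called higher without shControl replicate 2 (0.60; limma, adjusted p = 0.0203) and lower without the GC trend (-0.74; limma, adjusted p = 0.0133). LRRN2, a leucine-rich neuronal receptor, overlapped between the groups at 0.12 to 0.54 and 0.49 to 0.62 TPM. Of 13 neuronal and neuroendocrine markers 4 were listed (SYP, SCG2, SCG3 and CHGB), with a summed level of 6.82 to 7.41 TPM in shControl and 64.2 to 65.3 TPM in shGPER libraries, and the part of such a shift in these receptors was not tested.

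The CLSTN3 promoter is shown because it holds the full cyclic AMP response element, in capitals. CLSTN3 is 1 of 4 genes with a match (with MCAM, NECTIN2 and ST7) among the 48 of the 71 that have a window.
CLSTN3, chr12:7130121-7130420, plus strand: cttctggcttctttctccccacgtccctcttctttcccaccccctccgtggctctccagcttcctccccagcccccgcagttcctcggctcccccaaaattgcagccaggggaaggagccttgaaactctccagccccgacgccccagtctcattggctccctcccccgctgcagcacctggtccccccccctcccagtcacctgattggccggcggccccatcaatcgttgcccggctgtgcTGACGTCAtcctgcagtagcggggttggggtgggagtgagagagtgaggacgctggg
This window holds 65.7% GC and no match to the other 4 motifs. Of 20 genes with a window that rose 3 have this element, and of 15 that fell 1 does.

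The remaining 25 genes form a mixed class of cytoplasmic, signalling, membrane and other genes. PTX3 is counted here and not with the secreted matrix proteins. RND3, a small GTPase that loosens actin stress fibres, was the most abundant of all 71 genes in shControl cells, at 143.70, 148.68 and 155.01 TPM, and fell to 56.05, 60.09 and 58.54 TPM (limma: log2 fold change -1.34, SE 0.05, adjusted p = 2.68e-07). Of 12 leukocyte markers the table listed 0. CCL2, a monocyte chemokine with a cell adhesion term, had the largest fall among the tested genes of the 71 on the log2(TPM + 1) scale. It went from 82.02, 85.49 and 77.21 TPM to 23.79, 19.67 and 18.84 TPM. Its log2 fold change was -1.93 (SE 0.09, by limma, adjusted p = 4.28e-07). CD9, a tetraspanin that associates with integrins, fell from 53.57, 54.57 and 54.76 TPM to 16.96, 15.77 and 16.03 TPM, a change of -1.68 on the log2 scale (SE 0.06, limma adjusted p = 1.48e-07). Without the GC trend these 3 were at -0.53, -1.25 and -1.27. PODXL, an anti-adhesive sialomucin, fell from 17.70 to 19.23 TPM to 7.91 to 8.37 TPM, at -1.09 and, without the GC trend, -1.81. SSX2IP, which binds afadin at adherens junctions, fell to between 3.02 and 3.48 TPM, at -1.26, and was not called without the GC trend (-0.32; limma, adjusted p = 0.0613). PTX3, a pentraxin that links hyaluronan matrix, fell from 15.47 to 17.25 TPM to 6.49 to 7.53 TPM, at -1.15 and, without the GC trend, -0.60.

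CFDP1, a chromatin protein, ST7 and TIMM10B, a mitochondrial import factor, carry these terms although their better known roles lie elsewhere, and they fell at log2 fold changes of -1.64, -1.08 and -0.95. Without the GC trend they were at -0.92, -0.41 and -1.32. PDGFA, a growth factor of mesenchymal cells, fell from 22.01 to 24.79 TPM to 13.22 to 15.60 TPM, at -0.66 and -1.63 without the GC trend. ANXA3 and OLR1, an annexin and a scavenger receptor, were under 1 TPM in all shGPER libraries, at log2 fold changes of -0.81 and -1.16, and neither was called without the GC trend (-0.04 and -0.39).

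B4GALT1, a galactosyltransferase of the Golgi and cell surface, rose from 22.92, 22.81 and 24.90 TPM to 88.01, 94.10 and 99.21 TPM. Its log2 fold change was 1.95 (SE 0.07, by limma, adjusted p = 1.42e-07), and 1.44 without the GC trend. GPNMB, a membrane glycoprotein of melanosomes and lysosomes, rose from 2.00 to 2.58 TPM to 6.01 to 7.77 TPM, at 1.23, and FOXF1, a transcription factor of the gut mesenchyme, from 8.55 to 8.79 TPM to 16.47 to 20.97 TPM, at 1.07. Both kept or widened their change without the GC trend (2.00 and 1.19). BCL3, an NF-kB coactivator, rose from 35.35 to 40.05 TPM to 67.57 to 101.83 TPM, at 1.13. TGFB1I1, the focal adhesion protein Hic-5, rose from 12.37 to 15.29 TPM to 27.50 to 31.27 TPM, at 1.06, and the kinase gene PRKD2 from 23.75 to 25.65 TPM to 43.07 to 53.27 TPM, at 0.93. None of these 3 was called without the GC trend (0.05, 0.08 and 0.03). EPDR1 and RGMB were under 1 TPM in all shControl libraries, at log2 fold changes of 1.32 and 0.77 with directions fixed by the filter; without the GC trend they were at 1.75 and 0.25, RGMB no longer called, and 40.2% of the exonic bases of RGMB overlap an antisense gene. SCARF1, JCAD, THEMIS2 and FERMT3, the blood-cell kindlin, were not tested and had shGPER libraries above shControl libraries, with no value over 1.94 TPM. The same order of groups held for 71.7% of all genes not tested. THEMIS2 separated narrowly, at 0.27 to 0.73 TPM in shControl and 0.79 to 1.94 TPM in shGPER libraries.

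Integrins and the plaque that binds them to actin complete the adhesion machinery. No integrin gene was among the 71; of 26 integrin subunit genes the table listed ITGB3, at 0.09 to 0.19 and 0.03 to 0.09 TPM. Of 39 plaque and integrin activation genes 8 were listed and 7 tested, with 6 higher and 1 lower, against 47.8 and 50.6% of all tested genes. The filter fixed the direction of 2 of the 6 (LIMS2 and TNS1), and without the GC trend 2 were higher and 5 not called. PTK2, the focal adhesion kinase, was the most abundant and the one that fell, from 92.99, 96.53 and 97.48 TPM to 48.45, 51.68 and 58.23 TPM (log2 fold change -0.85). TNS2, a tensin, rose from 7.30 to 9.74 TPM to 19.32 to 27.17 TPM (1.32), and FBLIM1, the filamin-binding protein migfilin, from 6.47 to 8.50 TPM to 18.18 to 21.98 TPM (1.27). Without the GC trend TNS2 and FBLIM1 stayed higher at 0.37 and 0.33, and PTK2 was not called (-0.14; limma, adjusted p = 0.199). Over the 8 partner lists together, 13 of 22 tested genes rose and 9 fell (47.8 and 50.6% of all tested genes), 5 of them with a direction fixed by the filter, and without the GC trend 7 were higher and 8 lower; 10 of the 22 are also among the 71.

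The direction of adhesion and matrix genes followed the GC content of their transcripts as it did in the whole table. The median GC content was 60.9% for the 27 genes that rose and 46.1% for the 22 that fell, against 59.6 and 44.3% over all tested genes. The rank correlation between GC content and log2 fold change was 0.56 across the 50 genes and 0.59 across 1626 genes; genes share the same 6 libraries and are not replicates. Of the 49 called genes 39 moved as most called genes of like GC content did, and 10 moved against them. The 4 that rose against it were GPNMB, EPDR1, F11R and FOXF1, with 19.0, 27.1, 36.3 and 40.1% of like genes higher. The 6 that fell against it were MMP28, PDGFA, PODXL, CRISPLD2, TIMM10B and CCN3, with 91.7, 89.7, 81.7, 78.3, 66.4 and 50.2% of like genes higher, CCN3 being at the balance point. EPDR1, MMP28 and CRISPLD2 had their direction fixed by the filter, so they are no free exceptions. The same count was not made over all called genes, so whether 39 of 49 is usual in this table is not known.

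**Figure D4:**
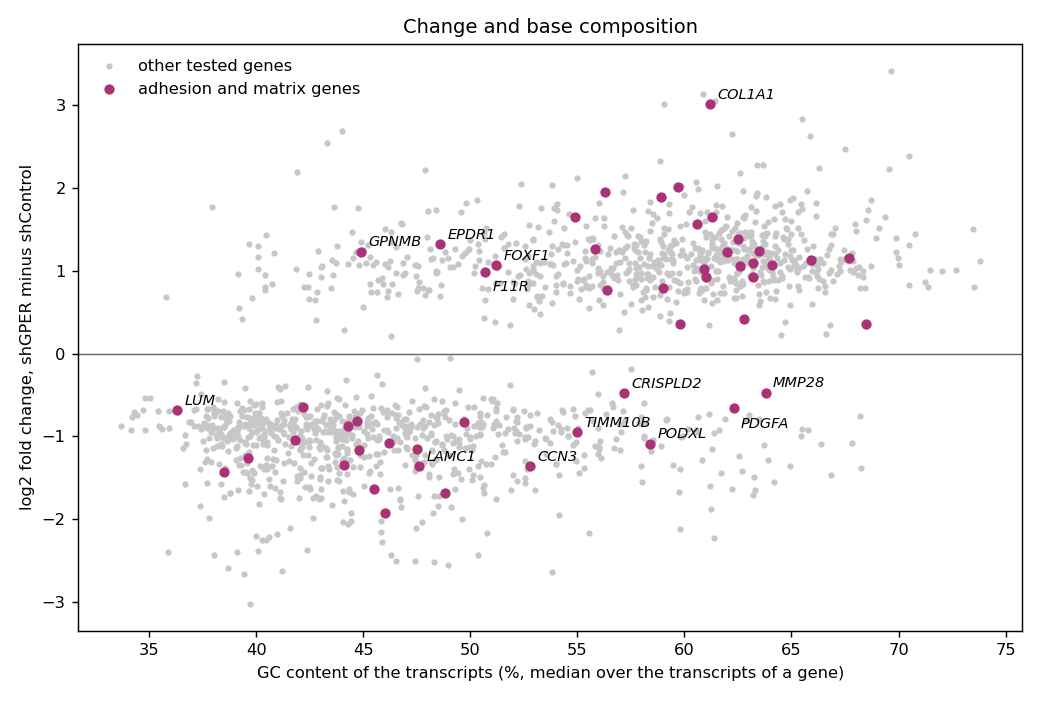
Log2 fold change (shGPER minus shControl) against the GC content of the transcripts for 1626 tested genes, with the 50 adhesion and matrix genes in colour and selected genes named. GC-rich transcripts mostly rose and GC-poor ones mostly fell, and PDGFA, MMP28 and PODXL lie low among GC-rich genes while GPNMB and EPDR1 lie high among GC-poor ones. The filter fixed the direction of MMP28 and EPDR1.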

How the data were processed

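The 6 libraries, 3 shControl and 3 shGPER by their titles, each have a table. Per the labels, total RNA was made into libraries with a stranded mRNA ligation kit. The authors deposited TPM per gene with annotation terms; fastp, HISAT2, RSEM and hg38 are named in the submitters' processing notes, and versions, settings and the use of strand are not given in the sources used here. In R 4.3.3, limma 3.58.1 was run on log2(TPM + 1) with an intensity trend and no covariate. It took the 1651 of 2128 genes with at least 1 TPM in at least 3 libraries. Benjamini-Hochberg adjustment was over all of them, with a threshold of 0.05. The fit was also run on simulated data in which few genes changed. Nearly all tested genes were called here, so that run does not bear on these calls. A fold change on this scale understates that of low genes. For any single gene, the two-sided exact permutation test of 3 against 3 libraries cannot go below p = 0.1.

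Positions and GC content are from GENCODE 29 (GRCh38, the build hg38), which matched all 71 genes, and promoters from RefSeq (GRCh38.p14). The GC trend was a natural spline with 3 degrees of freedom per library, fitted to a selected table, so what is left is relative to changed genes of similar GC content, and the step can take out a real difference. Genes of like GC content lie within 2.5 percentage points. The members, lists, roles and alternatives were chosen with earlier results of these data known. The naming rule took GPER1, tested laminins, collagens and cadherins, the 10 largest rises and falls among other members of at least 5 TPM in a group, the 6 most abundant, genes not called and up to 4 genes per partner list; further members were named with their values seen. Some members count in the totals but their own values are not reported here. Roles follow symbol patterns. Python 3.11.15 with scipy 1.17.1, numpy 2.4.6 and pandas 2.3.3 served for tables, and matplotlib 3.10.9 for figures.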

Additional observations from a re-analysis of the deposited data

How the results depend on the processing

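With the GC trend removed the counts of genes higher were 13 for all adhesion and matrix genes, 1 for collagens (with 1 lower), 11 for the other members and 7 for the partner lists, no cadherin was lower (0), and the median log2 fold change of the members was 0.03; the trend was fitted to a selected table and the cause was not tested. Under the same removal ADGRB1 turned to -0.74, COL7A1 to -0.57, SPOCK2 to -0.46, MCAM to -0.07, DCN to 0.23 and LUM to 0.25. A filter of 5 TPM, which tests fewer genes (31 members), left 16 members higher, 2 collagens, 13 other members higher and 12 lower, 8 partner genes higher, and a median of 0.93. No filter, which tests all 71, gave 44 members, 1 laminin, 7 collagens, 5 cadherins and 20 partner genes higher, and a median of 0.39. The median was 0.75 after median centring and 0.91 with a pseudocount of 0.1, and 0.54 to 0.68 when 1 library was left out. Leaving out 1 library gave 25 to 27 members higher and 22 lower. GPER1 stayed lower and called under all alternatives run, at -2.79 to -1.72. Without an intensity trend no named gene changed its call. The numbers in the titles did not pair the libraries: deviations of libraries with the same number correlated at 0.0327, -0.0872 and 0.0127, and not every library correlated best with its own number. A replicate block gave the same counts, 27 higher and 22 lower, and changed no call. The depth of the libraries is unknown, so for genes under 1 TPM no counting error can be given.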
